A study of Mus musculus with 5 samples.

Results

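The metallothionein and zinc-handling group described here holds 4 genes of the 32285 in the count matrices: the metallothionein genes Mt1 (ENSMUSG00000031765) and Mt2 (ENSMUSG00000031762), the zinc-sensing transcription factor gene Mtf1 (ENSMUSG00000028890) and the zinc exporter gene Slc30a1 (ENSMUSG00000037434). The members were taken by symbol after the low Mt1 and Mt2 levels in the sorbitol libraries had been seen, so their levels and ratios are given as a description, with no test. Single-cell RNA-seq was made from a mouse embryonic stem cell line that carries a red fluorescent protein under the Rex1 promoter. Every culture began in medium with LIF, the cytokine that maintains the undifferentiated state, and was then kept for 72 h in its own condition. Each of 5 conditions was sampled as 1 library. NS was kept with LIF, ND was kept without LIF, and S200, S250 and S300 were kept with LIF and sorbitol at 200, 250 or 300 mM. Sorbitol, a sugar alcohol, makes the medium hyperosmotic. The labels do not spell out NS and ND, and do not say whether the line is a single clone.

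Metallothioneins are small, cysteine-rich proteins that hold zinc and copper in the cytosol and buffer the free metal. When free zinc rises, the transcription factor MTF-1 binds short metal response elements near the start of the metallothionein genes and of Slc30a1 and activates them. Slc30a1 encodes ZnT1, which exports zinc across the plasma membrane. Most other proteins of the Slc30 (ZnT) family move zinc out of the cytosol, either from the cell or into organelles. The Slc39 (ZIP) family moves zinc into the cytosol. All Slc30 genes listed are counted as exporters here by family, whatever the action of each protein.

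Mt1 lay at chr8:94179082-94180327 and Mt2 at chr8:94172664-94173568, both on the + strand with 3 exons in the first listed transcript (mm10, GENCODE M21). Slc30a1 lay at chr1:191906767-191913247 with 2 exons and Mtf1 at chr4:124802104-124849800 with 11 exons, both on the + strand. The start regions of Mt1, Mt2 and Slc30a1 are shown because they hold the letters of the metal response element core through which the group is linked. Each runs 5′ to 3′ from 250 bases before the RefSeq start to 50 after it (RefSeq, GRCm38.p6, + strand), and capitals mark every match on either strand to TGCGCNC or TGCACNC. The windows are chr8:94178839-94179138 for Mt1, chr8:94172368-94172667 for Mt2 and chr1:191906531-191906830 for Slc30a1.
Mt1: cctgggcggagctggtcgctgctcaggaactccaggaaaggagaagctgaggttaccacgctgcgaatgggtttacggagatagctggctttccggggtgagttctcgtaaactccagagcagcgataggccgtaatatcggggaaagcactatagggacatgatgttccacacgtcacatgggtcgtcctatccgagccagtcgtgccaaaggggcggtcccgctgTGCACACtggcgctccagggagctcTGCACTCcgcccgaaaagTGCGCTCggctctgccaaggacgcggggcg
Mt2: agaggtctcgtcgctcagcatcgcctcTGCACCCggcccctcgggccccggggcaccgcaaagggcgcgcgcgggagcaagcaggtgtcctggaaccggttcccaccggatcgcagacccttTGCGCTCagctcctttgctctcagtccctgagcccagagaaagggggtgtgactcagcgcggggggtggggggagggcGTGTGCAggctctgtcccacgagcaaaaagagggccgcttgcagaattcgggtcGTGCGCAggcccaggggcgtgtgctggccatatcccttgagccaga
Slc30a1: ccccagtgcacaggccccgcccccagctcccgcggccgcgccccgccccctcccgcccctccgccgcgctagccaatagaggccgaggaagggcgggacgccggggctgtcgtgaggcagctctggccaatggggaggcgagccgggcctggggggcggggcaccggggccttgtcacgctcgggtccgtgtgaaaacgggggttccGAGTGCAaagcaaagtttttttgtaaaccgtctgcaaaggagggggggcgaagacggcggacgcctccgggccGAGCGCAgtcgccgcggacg
Counted from the RefSeq start as base 0, the Mt1 matches began at -23, 2 and 20, and the Mt2 matches at -223, -128, -50 and 4. Slc30a1 had 2 matches, at -43 and 30, both on the reverse strand, and the Mtf1 window had 0. The RefSeq starts differ from the GENCODE gene starts given above, and the Mtf1 window (chr4:124802299-124802598) lies wholly inside its GENCODE gene. No match overlapped another. Among 32817 mouse promoter windows of the same length, 25.7% held at least 1 match, 7.12% at least 2, 1.97% at least 3 and 0.518% at least 4. The antioxidant response element core, TGACNNNGC on either strand, was found 1 time in the Mt2 window (at -79) and 1 time in the Slc30a1 window (at -82), against 12.4% of windows with at least 1, and these matches overlapped none of the metal response element matches. A match of letters describes the window and does not show a binding site. Only 1 RefSeq start per gene was used and sequence outside its window was not searched, so a gene may hold further matches nearby.

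Each library held 10000 barcodes, of which 9240 to 10000 had at least 500 genes and were kept, with 7906116 to 22158653 UMIs (unique molecular identifiers, counted transcript molecules) per library. The NS library was the deepest, with a median of 2135 UMIs per barcode against 800 to 939 in the others, before filtering. Mitochondrial transcripts took 3.98% of UMIs in NS and 4.98% to 6.13% elsewhere, and ribosomal protein transcripts 28.4% against 21.3% to 25.4%. The lowest UMI number of a barcode was 1897 in NS and 729 to 827 in the others, and all libraries held the same number of barcodes. Whether barcodes were chosen by depth before deposit was not stated, and shares of barcodes refer only to those deposited. Any 2 libraries shared 34 to 54 barcode sequences. All 8 pluripotency markers reached 5 CPM (UMIs per 1000000 UMIs of the library) in every library. Their sums were 6437 CPM in NS, 5311 in ND and 7965, 8778 and 7948 under sorbitol. Most of each sum came from Dppa5a, at 4855, 3653, 5931, 6237 and 5397 CPM in that order. The members did not share a direction: Klf4 was at 102, 30.9, 344, 407 and 395 CPM, and Pou5f1 at 248, 249, 185, 240 and 170. Summed fibroblast markers ran from 12.2 CPM in NS to 27.8 in S200, with Col3a1 at 0 in every library. The fibroblast markers that reached 5 CPM in a library were S100a4, Thy1, Pdgfrb and Tagln. S100a4 was at 1.31 CPM in NS, 0.126 in ND and 11.4, 8.60 and 6.87 under sorbitol. Thy1 was at 3.16, 1.77, 6.51, 3.99 and 5.19 CPM in the same order, and Pdgfrb at 2.57, 2.15, 6.62, 3.48 and 4.82. Tagln was at 4.24 CPM in NS, 15.8 in ND and 0.325, 1.84 and 1.09 under sorbitol. Trophoblast markers summed to 56.4 CPM in NS, 40.3 in ND and 90.7 to 111 under sorbitol. Primitive and visceral endoderm markers summed to 356 CPM in NS, 403 in ND and 176 to 248 under sorbitol, mostly from Apoe, which was at 340, 393 and 150 to 223 CPM respectively. Of the other members of that list, only Gata6 and Amn reached 5 CPM in a library. Gata6 was at 5.01 CPM in NS, 2.15 in ND and 6.29, 8.29 and 11.8 under sorbitol, and Amn at 1.90, 0.885, 5.97, 6.35 and 6.63 CPM. Below 5 CPM in every library, Gata4 was at 4.197 CPM in NS, 2.15 in ND and 2.495, 3.69 and 3.14 under sorbitol. Pdgfra, also below 5 CPM, was at 0.767, 0.379, 1.63, 2.97 and 3.14 CPM in the same order. The part of depth, of ribosomal or mitochondrial share and of these marker levels in the results below was not tested. With 1 library per condition, library preparation and condition cannot be told apart, each ratio compares 2 libraries rather than 2 conditions, and every interval is a 95% interval for counting error only.

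Both metallothionein genes were far lower in the 3 sorbitol libraries than in either library without sorbitol. Mt1 was at 2287 CPM (exact Poisson interval 2267 to 2307, 50679 UMIs) in NS, 1509 (1482 to 1536) in ND, 231 (221 to 241) in S200, 182 (174 to 191) in S250 and 285 (274 to 297) in S300. No neighbouring intervals overlapped in the order NS, ND, S300, S200, S250. By UMI number, which is not scaled to gene length, Mt1 ranked 78th among all genes in NS and 780th in S250.

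Mt2 was at 994 CPM (981 to 1007) in NS, 814 (794 to 834) in ND, 115 (108 to 122) in S200, 126 (119 to 133) in S250 and 170 (161 to 179) in S300. The S200 and S250 intervals overlapped, and the other neighbours in the order of levels were apart. The summed share of Mt1 and Mt2 was 0.328% of the NS library, 0.232% of ND, and 0.0346%, 0.0308% and 0.0455% of S200, S250 and S300.

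Against NS, the log2 ratio of Mt1 was -3.31 in S200 (exact conditional interval -3.37 to -3.25), -3.65 in S250 (-3.72 to -3.58) and -3.00 in S300 (-3.06 to -2.94), which is 9.90-, 12.5- and 8.02-fold lower. The log2 ratio of Mt2 was -3.11 (-3.20 to -3.02), -2.98 (-3.07 to -2.90) and -2.55 (-2.63 to -2.47). These 3 comparisons share the NS library. Ranked over genes at or above 50 CPM in NS or the library compared, Mt1 had the lowest ratio to NS at each dose, and Mt2 was 2nd of 3338 in S200, 2nd of 3369 in S250 and 5th of 3564 in S300. These are the values that chose the genes. In those comparisons 11.0%, 8.69% and 10.6% of all genes at or above 5 CPM in NS or the library compared were at least 1.5-fold lower, and 26.8%, 26.5% and 32.8% at least 1.5-fold higher, with Mt1 and Mt2 among the lower and Slc30a1 among the higher at each dose.

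Without LIF, the same genes differed from NS much less. Mt1 was 1.52-fold lower in ND (log2 ratio -0.60, -0.63 to -0.57) and Mt2 1.22-fold lower (-0.29, -0.33 to -0.25). Mt1 ranked 114th from the lowest of 3189 genes and Mt2 407th, and 7.07% of 10210 genes were at least 1.5-fold lower and 10% at least 1.5-fold higher. Mt1 was the only member at least 1.5-fold lower there, and Slc30a1 the only one higher. Set against ND, S300 had a log2 ratio of -2.40 for Mt1 (-2.47 to -2.34) and -2.26 for Mt2 (-2.34 to -2.18), in a comparison with 11.4% of genes at least 1.5-fold lower and 27.9% at least 1.5-fold higher.

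Across the sorbitol doses the levels of Mt1 did not run in 1 direction. Mt1 was lower in S250 than in S200 (log2 ratio -0.34, -0.43 to -0.25) and higher in S300 than in S250 (0.64, 0.56 to 0.73), the latter 1.56-fold in a comparison where 3.51% of genes were at least 1.5-fold higher and 2.18% lower. For Mt2 the corresponding log2 ratios were 0.12 (0.00 to 0.24) and 0.43 (0.32 to 0.55). None of the members was 1.5-fold apart between S250 and S200, where 3.57% of genes were higher and 3.42% lower. There were 2.30 Mt1 UMIs per Mt2 UMI in NS (2.27 to 2.34), 1.85 in ND (1.80 to 1.91), 2.003 in S200 (1.86 to 2.16), 1.45 in S250 (1.35 to 1.56) and 1.68 in S300 (1.57 to 1.79). The proportion of Mt1 to Mt2 was therefore highest in NS and lowest in S250.

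Mtf1, which encodes the zinc sensor itself, was at 24.3 CPM in NS (22.3 to 26.5), 20.2 in ND (17.2 to 23.6), 24.5 in S200 (21.4 to 27.9), 23.2 in S250 (20.3 to 26.5) and 23.3 in S300 (20.1 to 26.8). All 5 intervals overlapped. Its log2 ratios to NS were 0.01 (-0.22 to 0.24), -0.07 (-0.30 to 0.16) and -0.06 (-0.31 to 0.18) at the 3 doses, and -0.27 (-0.53 to -0.01) in ND. Scaling by median of ratios, which lowered all ratios to NS by 0.22, 0.24 and 0.26 under sorbitol, put Mtf1 at -0.21, -0.30 and -0.32, with the last 2 intervals below 0. The gene overlaps 1110065P20Rik on the opposite strand, and the strand setting of the counting is not given in the sources used here.

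Slc30a1, the exporter gene that MTF-1 also activates, stood on the other side of NS from Mt1 and Mt2. It was at 9.61 CPM in NS (8.36 to 11.0, 213 UMIs), 17.2 in ND (14.4 to 20.3), 17.6 in S200 (15.0 to 20.5), 18.7 in S250 (16.1 to 21.7) and 19.4 in S300 (16.5 to 22.7). NS was below the other 4 libraries, whose intervals overlapped one another. The log2 ratio to NS was 0.84 (0.52 to 1.16) in ND and 0.87 (0.57 to 1.17), 0.96 (0.67 to 1.25) and 1.01 (0.71 to 1.32) at the 3 doses. Between S300 and ND it was 0.17 (-0.16 to 0.51). Slc30a1 overlaps 1700034H15Rik on the opposite strand, so the same limit on strand holds.

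**Figure D1:**
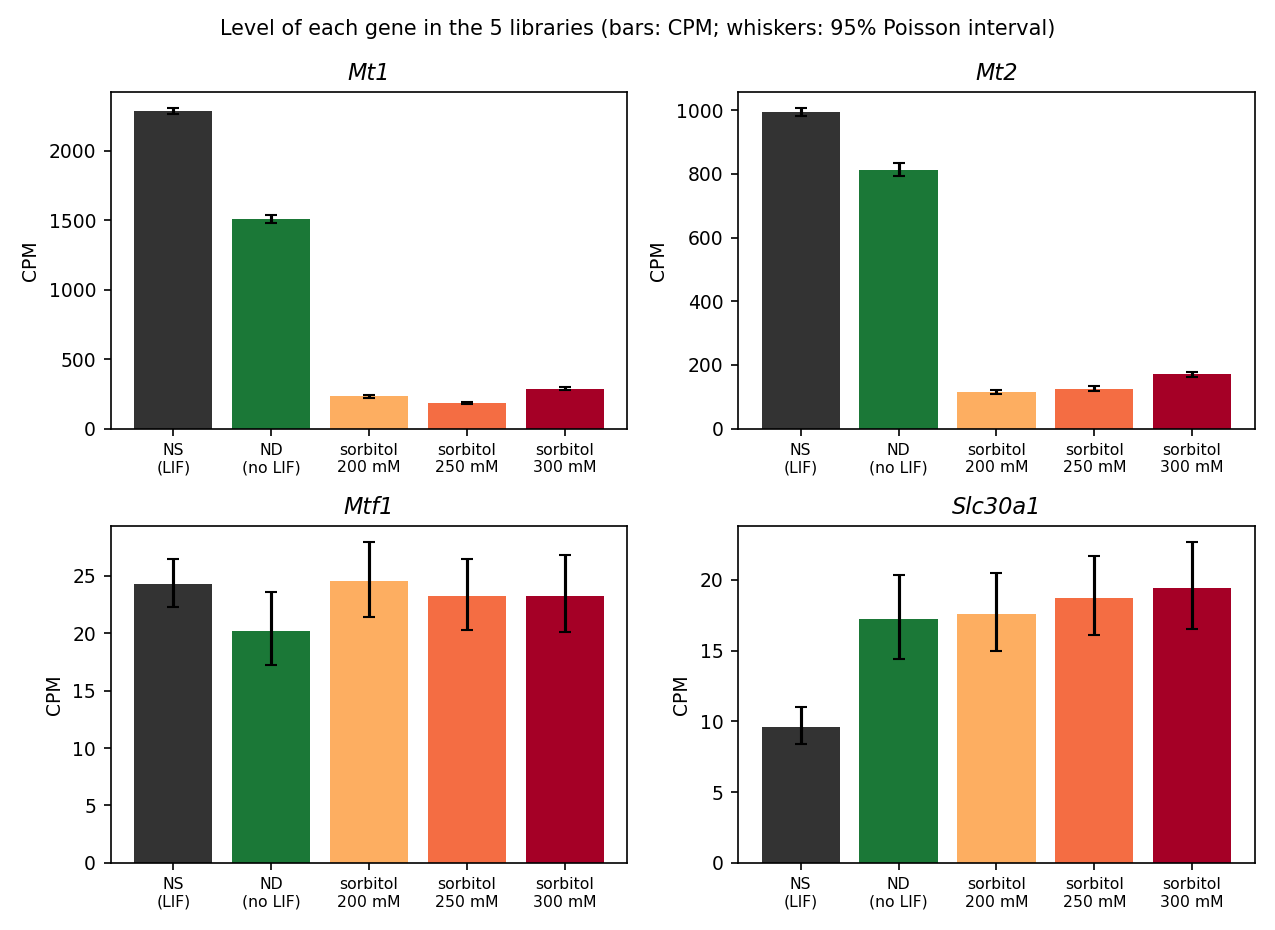
Level of each of the 4 members in CPM (y axis, from 0, its own scale in each panel) in the 5 libraries (x axis), with bars for the level and whiskers for the 95% exact Poisson interval. Mt1 and Mt2 are 5.85- to 12.5-fold lower in the 3 sorbitol libraries than in NS, Mtf1 lies between 20.2 and 24.5 CPM, and Slc30a1 is lowest in NS.

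The other metallothionein genes lie in the same cluster and were weakly expressed. Mt3, best known from brain, was at 17.6 CPM in NS, 12.6 in ND, and 4.66, 4.71 and 5.07 under sorbitol (390, 100, 43, 46 and 42 UMIs). Its log2 ratios to NS under sorbitol were -1.92 (-2.41 to -1.46), -1.90 (-2.38 to -1.46) and -1.80 (-2.29 to -1.34). Mt4, best known from stratified epithelia, was at 4.69 CPM in NS, 8.09 in ND, and 13.1, 8.29 and 10.01 under sorbitol, with log2 ratios of 1.48 (1.09 to 1.88), 0.82 (0.38 to 1.25) and 1.09 (0.66 to 1.52). Of the 4 metallothionein genes, 3 were thus at least 1.5-fold lower and 1 higher at each dose. Mt1 and Mt2 were picked after their low levels were seen, which leaves Mt3 lower and Mt4 higher. Among all genes 11.0%, 8.69% and 10.6% were lower at the 3 doses and 26.8%, 26.5% and 32.8% higher.

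Within 250 kb of Mt1 the annotation held 24 genes, 18 of which were in the files. Besides the metallothionein genes, those described here, each with at least 5 CPM in a library, are Nudt21, Ogfod1, Bbs2, Nup93 and Herpud1. None of these 5 was as far from NS as Mt1, Mt2 or Mt3 under sorbitol. Nup93, a nuclear pore gene 35.5 kb downstream of the Mt1 start, was at 32.5 CPM in NS and 49.1, 48.8 and 53.1 under sorbitol, and Ogfod1 at 13.0 and 21.7, 24.3 and 25.6. Herpud1, an endoplasmic reticulum stress gene, was at 37.0 CPM in NS and 23.8, 21.4 and 24.0 under sorbitol. Nudt21 had log2 ratios of 0.04, -0.42 and 0.09, and Bbs2 of 0.31, 0.33 and 0.51 at the 3 doses.

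Below 5 CPM, 2 non-coding genes beside Mt1 and Mt2 were singled out after their values were seen. Gm39228, a lincRNA that starts 4.21 kb downstream of the Mt1 start on the same strand, had 99 UMIs in NS, 6 in ND, and 2, 0 and 1 under sorbitol. Its level in NS was 4.47 CPM, and for ratios the 0 UMIs of S250 were set to the floor of 3 UMIs, which is 0.307 CPM there. Gm45774, an antisense gene that overlaps Mt2, had 65 UMIs in NS and 4, 4, 4 and 1 in ND, S200, S250 and S300. Of the 481 stretches of 31 bases in the first Mt2 transcript, 267 are shared with Gm45774 on the opposite strand, so reads of the pair cannot be told apart without strand. The transcripts of Mt1, Mt3 and Mt4 shared 0 such stretches with the transcripts of any other gene.

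**Figure D2:**
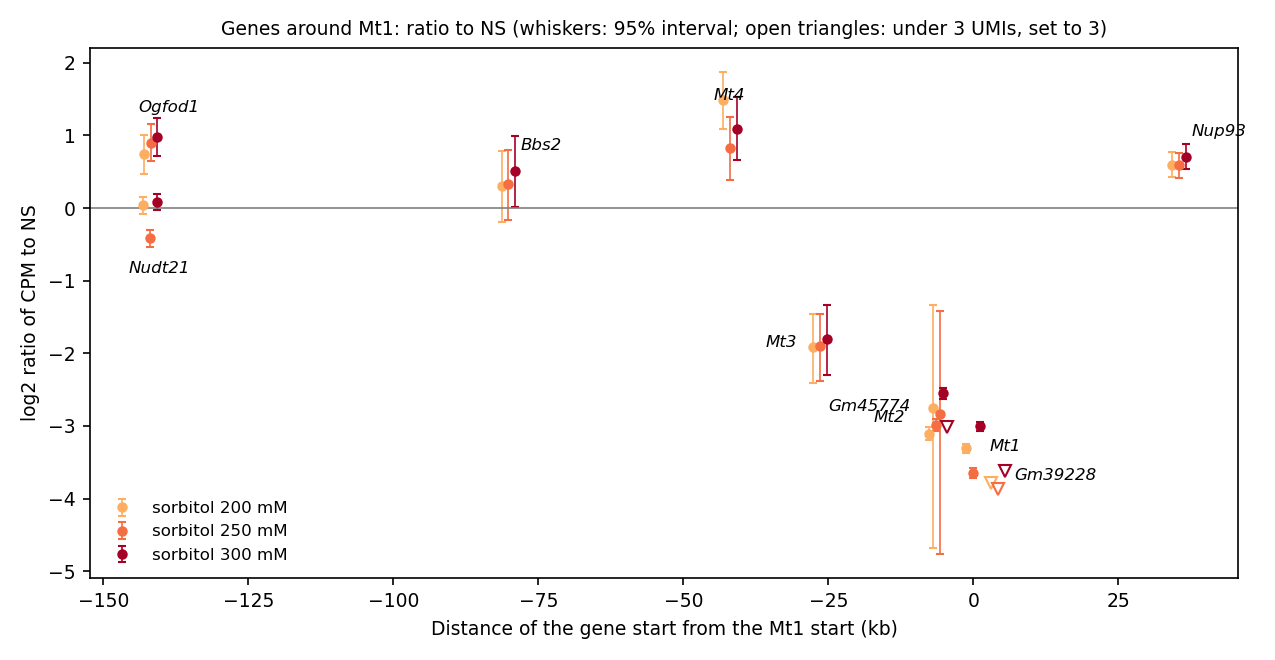
Log2 ratio of CPM to NS (y axis) of genes whose start lies within 150 kb of that of Mt1 against the distance of their start from the Mt1 start in kb (x axis), for the 3 sorbitol libraries, with 95% intervals for counting error. Genes below 5 CPM in every library are left out, except Gm39228 and Gm45774, which were added after their values were seen. Open triangles are counts under 3 UMIs, set to 3. Mt1, Mt2, Mt3, Gm39228 and Gm45774 lie between -4 and -1.5, and the other genes plotted lie between -1 and 1.5.

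Over the barcodes, the lower level appeared as fewer barcodes with a UMI. An Mt1 UMI was found in 96.6% of NS barcodes (exact binomial interval 96.2 to 96.9), 66.3% of ND (65.3 to 67.2), 18.2% of S200 (17.4 to 18.9), 14.9% of S250 (14.2 to 15.6) and 20.1% of S300 (19.3 to 20.9). At a common 500 UMIs per barcode, to which all kept barcodes were thinned, the shares were 64.1%, 49.4%, 10.6%, 8.29% and 12.8%. A single profile shared by all barcodes of a library would give 68.2%, 53.0%, 10.9%, 8.72% and 13.3% at that depth, so the observed share was slightly below it in each library. No cell type that should lack metallothionein transcripts is among these libraries, so the part of free RNA in these shares was not measured.

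Mt2 UMIs were found in 84.4%, 47.8%, 9.66%, 11.1% and 12.8% of barcodes of NS, ND, S200, S250 and S300, and in 38.0%, 32.4%, 5.47%, 5.93% and 7.94% after thinning. For Mtf1 the thinned shares were 1.21%, 0.999%, 1.21%, 1.14% and 1.16%, and the unthinned shares 5.24%, 1.72%, 2.21%, 2.24% and 1.94%. Slc30a1 UMIs were found in 2.10%, 1.45%, 1.61%, 1.82% and 1.61% of barcodes, and in 0.471%, 0.850%, 0.875%, 0.937% and 0.9504% after thinning. NS, the deepest library, thus had the highest unthinned share of Slc30a1 and the lowest thinned share.

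**Figure D3:**
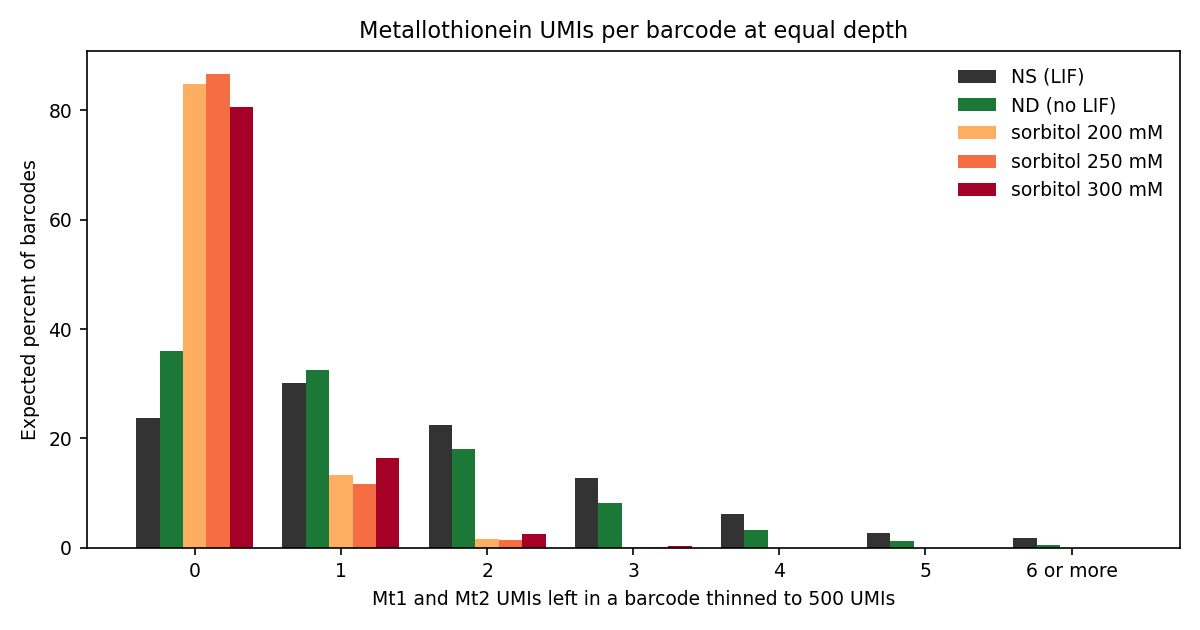
Expected percent of barcodes (y axis) by the number of Mt1 and Mt2 UMIs together that a barcode holds when thinned to 500 UMIs (x axis), with 1 bar per library and no error shown. Barcodes with 0 such UMIs are 23.8% of NS and 36.0% of ND, against 84.8%, 86.6% and 80.7% of the sorbitol libraries at 200, 250 and 300 mM.

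The spread of Mt1 between barcodes beyond counting noise, given as a coefficient of variation, was 0.475 in NS, 0.550 in ND, 0.751 in S200, 1.21 in S250 and 0.854 in S300. For Mt2 it was 0.399, 0.452, 0.953, 1.13 and 0.785. In S250, leaving out the barcode with most UMIs of the gene gave 1.16 for Mt1 and 0.841 for Mt2. The barcode left out for Mt2 held 10 Mt2 and 5 Mt1 UMIs among 926, the most of both genes together in that library. At least 5 metallothionein UMIs were found in 7171 barcodes of NS and 818 of ND, against 3 of S200, 13 of S250 and 8 of S300. ND and the sorbitol libraries are of like depth, and NS is deeper.

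Barcodes with more Mt1 had more Mt2 in every library. In NS, Mt2 was at 603 CPM (549 to 662) in barcodes with 0 Mt1 UMIs, 691 (652 to 732) with 1, 782 (748 to 817) with 2 and 1071 (1056 to 1087) with 3 or more. In ND the same steps were 641, 779, 912 and 1114 CPM. In S250 they were 112 CPM (105 to 120), 173 (151 to 198), 288 (212 to 383) and 553 (370 to 794), the last from 53 barcodes and 29 UMIs. The steps of S200 were 103, 160, 207 (153 to 274) and 381 CPM (197 to 666), the last from 34 barcodes and 12 UMIs. Those of S300 were 155, 215, 280 (216 to 357) and 359 CPM (201 to 592), the last from 49 barcodes and 15 UMIs. In each sorbitol library the intervals at 2 and at 3 or more Mt1 UMIs overlapped, while those at 0 and at 3 or more were apart. Barcodes of the sorbitol libraries with 3 or more Mt1 UMIs were thus below the Mt2 level of NS barcodes with 0 Mt1 UMIs, though the intervals of S200 and S250 reached above it. Pearson's r of Mt1 and Mt2 over the 10000 NS barcodes was 0.295, and the next gene of the 5232 compared, mt-Nd1, had 0.0847. In the other libraries r was 0.152, 0.0765, 0.0995 and 0.0657 at their lower depth, values too weak in sparse counts to read. The points are barcodes of 1 library and share its depth.

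**Figure D4:**
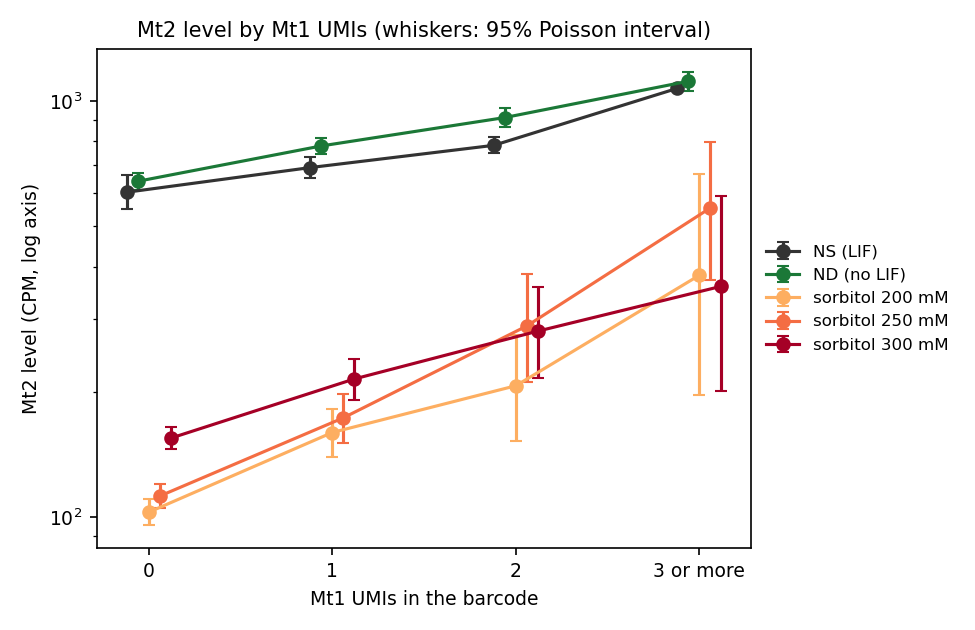
Mt2 level in CPM (y axis, log) of barcodes grouped by their number of Mt1 UMIs (x axis) in each library, with whiskers for 95% exact Poisson intervals. Mt2 climbs with Mt1 in all 5 libraries, from 603 to 1071 CPM in NS and from 112 to 553 CPM in S250. In the sorbitol libraries the whiskers at 2 and at 3 or more Mt1 UMIs overlap.

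Mt1 levels were also read by depth inside each library. When barcodes were split into 3 groups of like size by UMI number, Mt1 was at 2348, 2326 and 2207 CPM from the shallowest to the deepest in NS, at 1583, 1485 and 1471 in ND, and at 239, 230 and 225 in S200. In S250 it was at 189, 197 and 165 CPM, and in S300 at 281, 284 and 289. Within each of these libraries the groups differed by less than 1.5-fold. The intervals of the shallowest and deepest groups were apart in NS (2311 to 2385 against 2176 to 2239) and in ND (1533 to 1634 against 1428 to 1515). NS barcodes held at least 1897 UMIs, so the groups do not set NS beside the other libraries at like depth. The part of depth in the ratios to NS was not tested. Barcode sequences found in more than 1 library were 155 to 186 of the kept barcodes in the ND and sorbitol libraries. Barcodes with a sequence also in NS had 74 Mt1 UMIs in ND (1883 CPM, 1479 to 2364), 13 in S200 (284 CPM, 151 to 485), 5 in S250 (151 CPM, 49.0 to 352) and 12 in S300 (388 CPM, 201 to 678). Each of these 4 intervals held the level of its whole library.

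Among the zinc transporter genes, Slc30a1 included, more were higher than lower under sorbitol, as over all genes. Of the 18 that reached 5 CPM in NS or the library compared, 5 were at least 1.5-fold higher and 4 lower in S200, 7 and 4 in S250, and 11 and 3 in S300. In ND it was 2 and 2 of 17, beside 10% of all genes higher and 7.07% lower. The shares of all genes were 26.8% higher and 11.0% lower in S200, 26.5% and 8.69% in S250, and 32.8% and 10.6% in S300. The median log2 ratio was 0.41, 0.42 and 0.70 at the 3 doses against 0.20, 0.23 and 0.29 for all genes, and 0.14 against 0.08 in ND. With median-of-ratios scaling, which lowers the ratios of all genes, the S300 count of higher genes was 6. No all-gene share under that scaling is given.

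Exporters beside Slc30a1 went both ways. Slc30a4, which moves zinc into vesicles, was at 4.24 CPM in NS and 7.92, 8.81 and 11.8 in S200, S250 and S300. Slc30a5, an exporter of the early secretory pathway, was at 17.6 CPM in NS and 35.0, 33.3 and 30.6 under sorbitol. Slc30a6, which pairs with it, was lower, at 7.85 CPM in NS and 5.21, 5.22 and 3.86 under sorbitol. Slc30a3, the synaptic vesicle zinc transporter gene, was at 21.3 CPM in NS, 9.87 in ND and 7.49, 4.51 and 6.51 under sorbitol. Of the 8 exporters measured, 3, 4 and 5 were at least 1.5-fold higher and 2 lower at each dose, beside 26.8%, 26.5% and 32.8% of all genes higher and 11.0%, 8.69% and 10.6% lower.

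Among importers that reached 5 CPM, those past 1.5-fold at every dose were Slc39a9, Slc39a11 and Slc39a3. Slc39a9 was at 12.05 CPM in NS, 11.3 in ND and 22.9, 22.4 and 35.0 under sorbitol. Slc39a11 was at 6.23 CPM in NS, 9.11 in ND and 18.6, 15.5 and 18.1 under sorbitol. Slc39a3, a plasma membrane importer gene, was lower, at 6.36 CPM in NS, 4.05 in ND and 3.04, 3.69 and 2.05 under sorbitol. Of 10 importers measured, 2, 3 and 6 were at least 1.5-fold higher and 2, 2 and 1 lower at the 3 doses. For S200 and S250 the higher counts are near the 26.8% and 26.5% of all genes, and for S300 the share of all genes was 32.8%. Below 5 CPM, Slc39a2 was at 1.17 CPM in NS and 3.69, 4.096 and 3.50 under sorbitol.

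**Figure D5:**
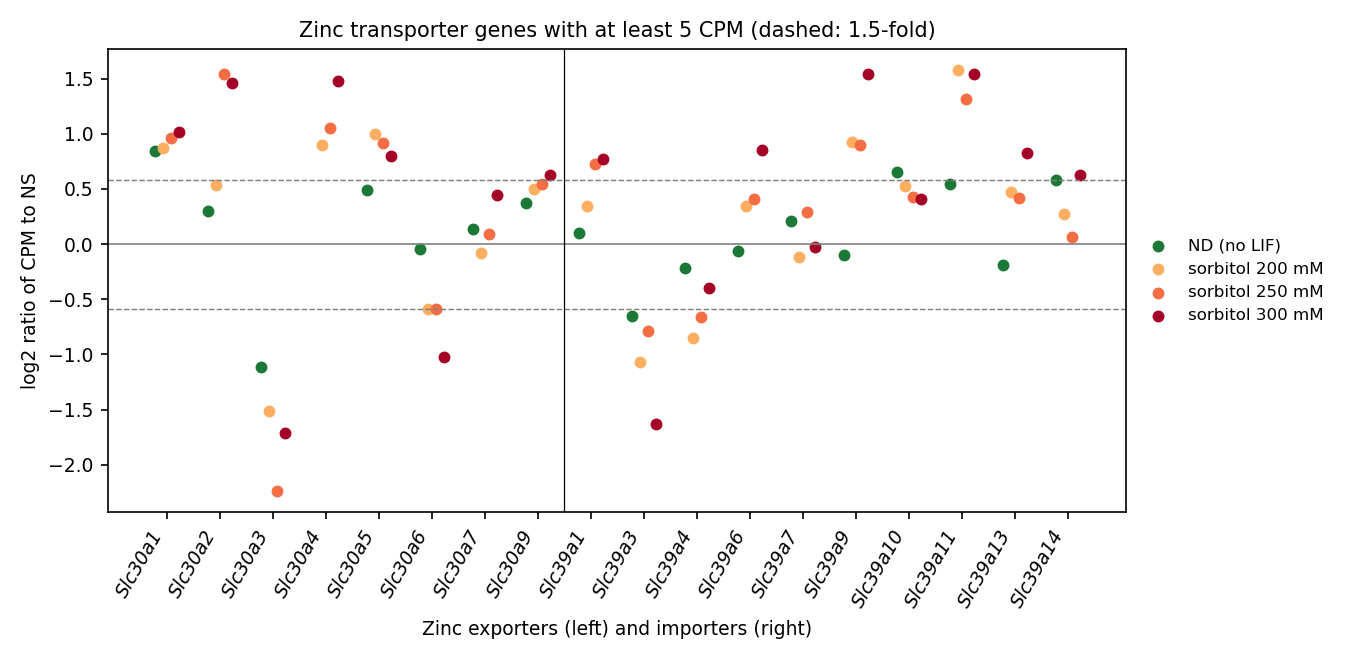
Log2 ratio of CPM to NS (y axis) of the zinc exporter genes (left of the vertical line) and importer genes (right, x axis), with a point for each of ND, S200, S250 and S300 where the gene reached 5 CPM in NS or that library. Dashed lines mark 1.5-fold, and no error is shown. Slc39a11, Slc39a9 and Slc30a4 lie at 1.54, 1.54 and 1.48 in S300, and Slc30a3 and Slc39a3 at -1.71 and -1.63.

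Other genes that metal is known to affect were counted beside Mt1 and Mt2. Of 6 such genes besides the metallothioneins, 1 was at least 1.5-fold higher and 0, 2 and 1 lower at the 3 doses, with Slc30a1 the higher gene each time. Among all genes 26.8%, 26.5% and 32.8% were higher and 11.0%, 8.69% and 10.6% lower. Median-of-ratios scaling gave 1, 2 and 2 of the list lower, without all-gene shares under that scaling. The 2 lower genes of S250 were Gclc and Ndrg1. In ND 2 were higher, Slc30a1 and Slc39a10, and 1 was lower, Ndrg1, beside 10% of all genes higher and 7.07% lower. Slc39a10, a zinc importer gene that MTF-1 represses, was at 31.3 CPM in NS, 49.3 in ND and 45.0, 42.1 and 41.5 under sorbitol. Slc39a10, Gclc and Ndrg1 were named after their values were seen.

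Copper handling genes were mixed, with 2, 3 and 2 of 12 at least 1.5-fold higher and 1 lower at each dose, and 0 in either direction of 11 in ND. The share of all genes higher at the doses, 26.8%, 26.5% and 32.8%, was above that of the list. In ND, 10% of all genes were higher and 7.07% lower. With median-of-ratios scaling 2, 1 and 1 were higher, and 1 was lower in ND. That gene count in ND was also 1 with all deposited barcodes and without mitochondrial and ribosomal protein genes in the total. The all-gene shares above are those of the main setting and do not cover these alternatives. Sco2, a copper chaperone of cytochrome oxidase, was at 23.9 CPM in NS, 17.6 in ND and 5.53, 10.03 and 11.0 under sorbitol. Slc31a2, which encodes a copper transporter, had 5.23 CPM in NS, then 9.76, 9.52 and 12.4 under sorbitol. Atp7b, a copper-exporting ATPase gene, was at 0.722 CPM in NS and 6.94, 5.22 and 5.43 under sorbitol.

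Genes of the NRF2 oxidative stress response, to which the metallothioneins also belong, were lower under sorbitol in part. Of 17 measured, 6, 7 and 5 were at least 1.5-fold lower and 0 higher at the 3 doses, against 0 lower and 2 higher in ND. Among all genes 11.0%, 8.69% and 10.6% were lower and 26.8%, 26.5% and 32.8% higher at the 3 doses, against 7.07% lower and 10% higher in ND. Median-of-ratios scaling, which lowers the ratios of all genes, gave 8, 9 and 9 of the list lower. The all-gene shares are given for CPM scaling only, so these counts have no matching share beside them. The median log2 ratio of the list was -0.32, -0.44 and -0.35, and 0.29 in ND, beside the medians of all genes given above. Slc7a11, the cystine importer gene, was at 10.2 CPM in NS, 24.2 in ND and 3.80, 4.096 and 6.51 under sorbitol. Gclm, a subunit of the enzyme that begins glutathione synthesis, was at 107 CPM in NS, 152 in ND and 45.8, 45.6 and 52.5 under sorbitol. Txnrd1, a thioredoxin reductase gene, was at 229, 217, 108, 134 and 112 CPM in NS, ND, S200, S250 and S300. Nfe2l2, which encodes NRF2, was at 123, 95.4, 60.3, 69.2 and 75.9 CPM.

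The gene whose profile over the 5 libraries was most like Mt1 was Mt2, with a root mean square difference of 0.23 in centred log2 CPM, among 3790 genes with at least 50 CPM in a library. The median gene differed by 1.55. Mt1 and Mt2 were both picked after their low levels in these same libraries were seen, so the place of Mt2 was in large part fixed beforehand. After Mt2 came Cbr3 (0.55), Ina (0.57), Sycp3 (0.62), Lefty1 (0.63), 2410006H16Rik (0.71), Tmem238 (0.72), Gas5 (0.73), Ftl1 (0.76) and Id2 (0.76). Cbr3, a carbonyl reductase gene, was at 38.1 CPM in NS, 69.7 in ND and 3.69, 4.096 and 6.15 under sorbitol. Gas5, a small nucleolar RNA host gene, was at 443, 296, 141, 109 and 113 CPM in NS, ND, S200, S250 and S300. Cbr3, Ina, Lefty1, Tmem238 and Id2 were higher in ND than in NS, where Mt1 was lower.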

How the data were processed

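Single-cell libraries of 5 conditions, 1 per condition, were deposited by the authors as raw UMI counts per gene and barcode, and per the file headers the matrices come from Cell Ranger 6.0.1. The submitters' processing notes also name Seurat 4.1.1, R 4.1.2 and mm10 without roles. The strand setting, like the annotation and the choice of barcodes, is not given in the sources used here. The labels' extraction protocol names Trizol lysis and a bulk 3′ kit, while the deposited matrices hold cell barcodes, which was not reconciled.

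Barcodes under 500 genes or over 20% mitochondrial UMIs were dropped, and no doublet caller was run. Counts were summed per library and scaled to CPM with Python 3.11.15 (numpy 2.4.6, scipy 1.17.1, pandas 2.3.3, matplotlib 3.10.9). Levels carry exact Poisson intervals, ratios exact conditional binomial intervals and shares exact binomial (Clopper-Pearson) intervals, all at 95%. A count under 3 UMIs was set to 3 in ratios. Genes at or above 5 CPM in NS or the library compared were counted at 1.5-fold. Thinned shares are the hypergeometric expectation at 500 UMIs per barcode. The scripts were checked on simulated data. Gene positions came from GENCODE M21, in which 32158 of 32285 gene IDs matched, and start regions from RefSeq GRCm38.p6, in which all 4 members matched.

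The members and gene lists were chosen with earlier results of these data known. Named genes were the members, list members past 1.5-fold in the same direction at all 3 doses (or otherwise up to 3 with the greatest ratio at 300 mM), the 10 genes most like Mt1 over libraries or over NS barcodes, and neighbours of Mt1 with at least 5 CPM. A single such neighbour is not reported here. Alternatives covered the scaling, the barcodes used, the fold and the minimum level. Where libraries were compared over the UMI range that both hold, a ratio was formed only from 3 or more UMIs, a limit set after the values were seen.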

Additional observations from a re-analysis of the deposited data

How the results depend on the processing

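The log2 ratios to NS of Mt1 and Mt2 were below 0 in all 4 libraries, and those of Slc30a1 above 0, under every alternative that gave a value, but the interval of Mt2 in ND reached above 0 over the UMI range that both libraries hold. Ratios of the 4 members moved by less than their counting intervals without Mt1 and Mt2 in the total, with all deposited barcodes, without the deepest 5% of barcodes, without shared barcode sequences and as a mean of barcode shares. With median-of-ratios scaling the log2 ratios to NS in S200, S250 and S300 were -3.53, -3.88 and -3.26 for Mt1 and -3.33, -3.22 and -2.81 for Mt2, and those of Mtf1 in S250 and S300 were -0.30 and -0.32. Without mitochondrial and ribosomal protein genes in the total, ND, S250 and S300 were at -0.64, -3.73 and -3.11 for Mt1 and at -0.33, -3.07 and -2.65 for Mt2. Over the UMI range that both libraries hold, which left 4, 8, 20 and 4 barcodes of ND, S200, S250 and S300, Mt1 was at -1.26 (-2.47 to -0.28), -2.72 (-4.16 to -1.60) and -4.99 (-7.27 to -3.44) in ND, S200 and S250, and Mt2 at -0.24 (-1.55 to 0.80) and -2.09 (-3.97 to -0.73) in ND and S200. The other ratios over that range, Mt2 in S250 apart (-3.05, -4.67 to -1.83), had under 3 UMIs and gave no value. With median-of-ratios scaling, 14 of 48 list counts moved by over 1.5 times, among them the NRF2 genes lower in S300 (9 in place of 5), and 24 moved at 2-fold in place of 1.5-fold. Calling at 2-fold left 0, 1, 3 and 5 zinc transporters higher in ND, S200, S250 and S300. It left 5, 2 and 2 NRF2 genes lower in S200, S250 and S300. Shares of all genes at 2-fold or under median-of-ratios scaling are not given, so these list counts have no matching share. The cause of these shifts was not tested. No paired analysis was possible because each condition has 1 library, and no replicate could be left out.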

Other observations

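Glucocorticoid hormones are known to raise metallothionein transcripts, and a list of 7 measured glucocorticoid-responsive genes had 3, 3 and 4 members at least 1.5-fold higher than NS and 0 lower in S200, S250 and S300, and 0 in either direction in ND. Among all genes 26.8%, 26.5% and 32.8% were higher and 11.0%, 8.69% and 10.6% lower at the 3 doses, and 10% higher and 7.07% lower in ND. Sgk1, a kinase gene that osmotic stress is also known to raise, was at 25.3 CPM in NS, 33.4 in ND and 117, 131 and 177 under sorbitol. Tsc22d3, an anti-inflammatory leucine zipper gene, was at 9.07 CPM in NS, 9.74 in ND and 17.1, 17.1 and 18.1 under sorbitol. With median-of-ratios scaling, 2 members were higher at each dose and 2, 0 and 1 lower, and all-gene shares under that scaling are not given. In ND, 1 was lower with all deposited barcodes and without mitochondrial and ribosomal protein genes in the total.

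Genes of the LIF receptor and STAT3 pathway, which also acts on metallothionein genes, had 4, 2 and 4 of 10 members at least 1.5-fold higher and 0 lower at the 3 doses, and 1 higher and 5 lower in ND. The higher counts at the doses stand beside 26.8%, 26.5% and 32.8% of all genes, and the ND counts beside 10% higher and 7.07% lower. Klf4, a pluripotency factor gene downstream of STAT3, was at 102 CPM in NS, 30.9 in ND and 344, 407 and 395 under sorbitol. Bcl3, a STAT3 target gene, was at 15.1 CPM in NS, 3.16 in ND and 29.4, 26.1 and 27.6 under sorbitol. With median-of-ratios scaling, 2, 1 and 2 members were higher and 0, 1 and 0 lower, again without all-gene shares under that scaling.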
